A study of Mus musculus with 8 samples.

Results

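Cytosolic ribosomal protein genes encode the protein part of the ribosomes that translate messenger RNA in the cytoplasm. They were chosen by symbol alone: gene symbols starting with Rpl (large subunit) or Rps (small subunit) followed by a number, plus Rpsa, Rplp0, Rplp1 and Rplp2, and without the Rps6k kinases. The rule took 82 of the 13786 protein-coding genes of the count table. Of these, 77 were canonical members of the ribosome, 46 of the large and 31 of the small subunit. The other 5 were paralog-type genes, Rpl3l, Rpl7l1, Rpl22l1, Rpl39l and Rps27l, each a relative of a canonical partner gene. RNA was sequenced from CD11c-positive spleen cells, annotated as dendritic cells, of untreated female mice aged 7 weeks. The control strain was C57BL/6 (n = 4 mice), and the compared strain was B6.SLE123 (n = 4 mice), a C57BL/6 congenic that carries lupus susceptibility intervals on chromosomes 1, 4 and 7 in every cell and throughout life. Genotype and the mix of cells isolated differed together between the strains and cannot be told apart by this design.

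Ribosomal proteins are made in near-equal numbers, because each ribosome needs a copy of nearly every one. Their messenger RNAs start with a C followed by a run of pyrimidines, the 5′ terminal oligopyrimidine or TOP motif, through which the TOR kinase and the binding protein Larp1 set their translation together. The genes are short, among the most strongly transcribed of the genome, and have left many processed pseudogenes. In dendritic cells, as in other immune cells, growth and division call for new ribosomes.

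First bases are printed for some of the members that the results turn on, chosen after their values were seen. All of those printed open with a pyrimidine run at the listed start, which most listed starts of the members did not. Each line gives 10 bases before and 20 bases from the start site listed by RefSeq on GRCm38.p6, 5′ to 3′ on the gene's strand, with the pyrimidine run that begins at the start site in capitals. Rpl35a lay at chr16:33056472-33056501 (plus strand), Rpl28 at chr7:4792955-4792984 (plus), Rpl14 at chr9:120571507-120571536 (plus), Rps6 at chr4:86857348-86857377 (minus), Rps10 at chr17:27635225-27635254 (minus), Rpl38 at chr11:114668570-114668599 (plus), Rplp2 at chr7:141447641-141447670 (plus) and Rps27 at chr3:90213629-90213658 (minus).
Rpl35a: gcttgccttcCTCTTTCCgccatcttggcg
Rpl28: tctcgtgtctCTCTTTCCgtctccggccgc
Rpl14: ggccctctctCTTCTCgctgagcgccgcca
Rps6: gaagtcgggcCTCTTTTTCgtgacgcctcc
Rps10: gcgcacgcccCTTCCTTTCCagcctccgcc
Rpl38: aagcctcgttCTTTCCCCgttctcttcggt
Rplp2: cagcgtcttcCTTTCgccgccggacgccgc
Rps27: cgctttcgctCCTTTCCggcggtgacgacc
The promoter table held 74 start sites for 62 of the 82 members. A run of at least 5 pyrimidines that opened with C exactly at the start was present in 13 of the 74 (17.6%), against 2.51% of all 32851 promoters. With a tolerance of 5 bases on the start, the shares were 41.9% and 18.3%. The letters TTCCGG, the core of the sequence bound by ETS-family factors, were found on either strand of the 300-base promoter in 36 of 74 (48.6%) and in 14.9% of all promoters. A match describes these letters and does not show that a factor binds there.

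Library totals over protein-coding genes ran from 25563070 to 37367094 counts, and 80 of the 82 members had at least 10 counts in every mouse. The exceptions were Rpl3l and Rpl39l, with 2 to 9 and 4 to 45 counts per mouse. The CD11c gene Itgax was at 1329 ± 77.9 counts per 1000000 counts (CPM) in C57BL/6 and 1543 ± 93.4 CPM in B6.SLE123 (mean ± SD, n = 4 each). Markers of other cells differed between the strains. All 7 red pulp macrophage markers were lower in B6.SLE123 (median log2 fold change -2.45), with a summed level of 9364 to 11830 CPM in C57BL/6 and 1350 to 2632 CPM in B6.SLE123. Lower, too, were 3 of 3 marginal zone macrophage markers (-1.77), 5 of 6 erythroid markers (-2.63) and 4 of 5 B cell markers (-0.56), whereas 8 of 8 proliferation genes were higher (0.99). Among dendritic cell markers, 3 of 5 type 1 genes were higher and 1 lower, 3 of 4 type 2 genes were lower, and 1 of 4 plasmacytoid genes was higher. No marker of T cells, NK cells or neutrophils passed the test (0 of 4, 0 of 4 and 0 of 3 measured), and of 4 plasma cell markers 1 was higher and 2 were lower. In such bulk samples, fewer cells of a type and less RNA per cell cannot be told apart, and the part of these shifts in the results that follow was not tested.

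Ribosomal protein genes were, as a group, slightly more abundant in CD11c-positive cells of B6.SLE123 mice. Together the 82 genes took 4.72%, 4.84%, 4.803% and 5.07% of all counts in the C57BL/6 mice and 5.75%, 5.10%, 5.20% and 5.38% in the B6.SLE123 mice. Every B6.SLE123 mouse was above every C57BL/6 mouse, with the closest pair at 5.07% and 5.10%. Means were 4.86 ± 0.147% and 5.36 ± 0.286% (SD, n = 4 each), a ratio of 1.103. Large subunit genes went from 2.71 ± 0.0703% to 2.97 ± 0.164% of counts and small subunit genes from 2.13 ± 0.0765% to 2.37 ± 0.122%, ratios of 1.095 and 1.112.

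Gene by gene, 74 of the 82 members had a higher mean in B6.SLE123. With edgeR (quasi-likelihood F-test, p-values adjusted by Benjamini-Hochberg over all genes), 47 members were called higher and 3 lower at an adjusted p below 0.05. Across all genes tested 53.4% were called, 26.7% higher and 26.6% lower. Of the members 61.0% were called, not far above that background, with 57.3% higher and 3.66% lower. All 4 B6.SLE123 mice lay above all 4 C57BL/6 mice in 37 members (45.1%) and below them in 2 (2.44%), against 24.4% and 24.5% of all genes. The median member differed by 0.14 on the log2 scale, or 9.90%, and the median of all genes by -0.0019. Only 2 members were called with more than a 2-fold difference, Rpl35a and Rpl39l, against 11.1% of all genes. At the median standard error of a canonical member, 0.05, a 95% interval by the normal approximation reaches 0.10 to either side. An interval that matched the F-test would be wider. Differences like that of the median member thus sat close to what 4 mice per strain resolve.

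**Figure D1:**
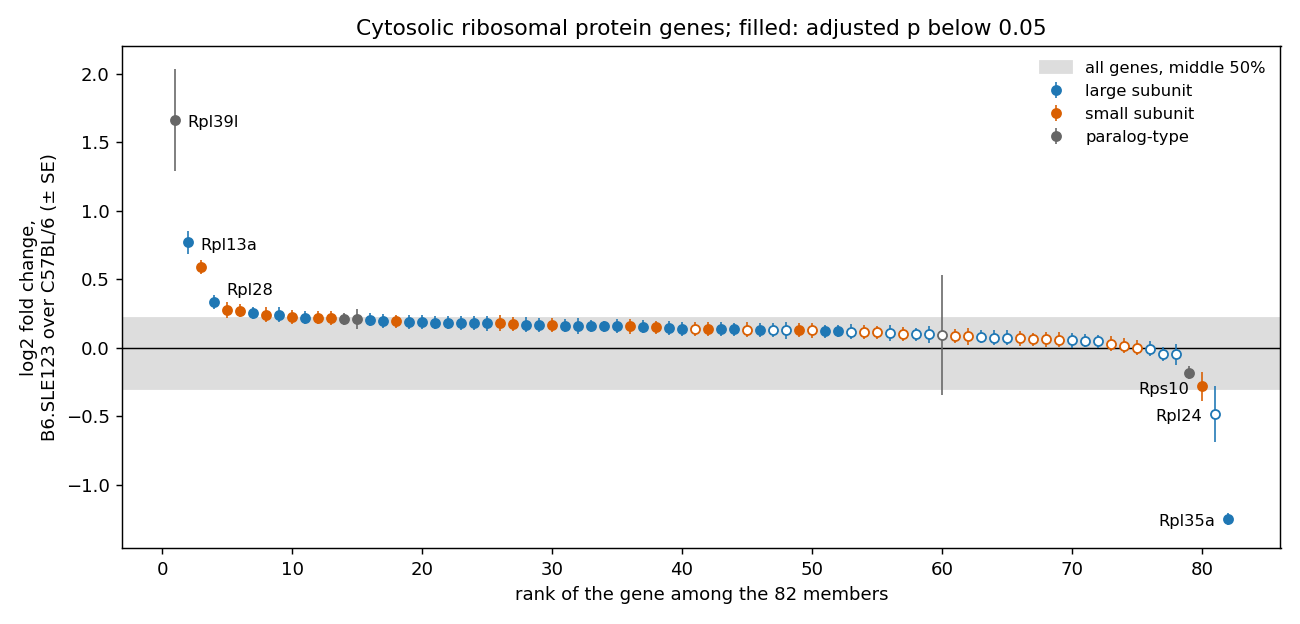
The 82 ribosomal protein genes ranked by log2 fold change, B6.SLE123 over C57BL/6 (points with standard errors, coloured by subunit, filled where the adjusted p was below 0.05), with the middle 50% of all genes in grey. Most members lie in a narrow band just above 0, and Rpl39l and Rpl13a stand above it and Rpl35a below it.

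Within a strain, the same mice were high or low in most members. B6.SLE123 replicate 1 had the strain's highest value in 74 of 82 members, and its median deviation from the strain mean was 0.10 (log2). C57BL/6 replicate 4 was likewise the highest of its strain in 74 of 82 members, with a median deviation of 0.07, and C57BL/6 replicate 1 was the lowest in 59, at -0.05. Without B6.SLE123 replicate 1 and C57BL/6 replicate 4, the median difference was 0.12 and 39 members were called, 37 higher. Leaving out 1 mouse at a time gave 31 to 48 calls. The count fell to 31 without C57BL/6 replicate 1 and to 32 without C57BL/6 replicate 3 or B6.SLE123 replicate 4, and the calls higher fell from 47 to 31 without B6.SLE123 replicate 1, to 29 without B6.SLE123 replicate 4, to 28 without C57BL/6 replicate 1 and to 30 without C57BL/6 replicate 3. In all 8 of these fits 29 members were called.

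Large subunit proteins build the face of the ribosome that joins amino acids. Of 46 large subunit members, 29 were higher, 1 was lower and the median log2 difference was 0.14. Rplp0, the base of the stalk that recruits elongation factors, had the highest mean CPM of the members, with 1542, 1526, 1547 and 1596 CPM in C57BL/6 and 1949, 1687, 1703 and 1763 CPM in B6.SLE123. Every B6.SLE123 mouse was above every C57BL/6 mouse (log2 fold change 0.19 ± 0.05 SE, adjusted p = 9.48e-03). Its stalk partners did not follow it past the test. Rplp1 had 1101 to 1178 CPM in C57BL/6 and 1135 to 1242 CPM in B6.SLE123 (0.05 ± 0.04, adjusted p = 0.404), and Rplp2 had 595 to 661 CPM and 537 to 708 CPM (-0.05 ± 0.08, adjusted p = 0.622). In Rplp2 the 4 B6.SLE123 mice spanned the whole C57BL/6 range, with replicate 1 above it and the other 3 below it.

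Rpl5 and Rpl11, which with 5S ribosomal RNA bind the p53 inhibitor Mdm2 when ribosome assembly is disturbed, were higher by the same amount. Rpl5 had 766, 799, 805 and 838 CPM in C57BL/6 and 980, 873, 862 and 926 CPM in B6.SLE123 (0.18 ± 0.05, adjusted p = 0.0115). Rpl11 had 557 to 619 CPM and 617 to 708 CPM, with the lowest B6.SLE123 mouse just under the highest C57BL/6 mouse (0.18 ± 0.05, adjusted p = 0.0126). Rpl28 had the largest rise among abundant large subunit genes. Its levels were 633, 638, 636 and 676 CPM against 884, 794, 797 and 777 CPM, without overlap (0.33 ± 0.05, adjusted p = 2.19e-04). Next were Rpl14 (583, 566, 593 and 607 CPM against 753, 673, 686 and 690 CPM, 0.25 ± 0.05, adjusted p = 9.18e-04) and Rpl4, the longest coding sequence of the set (1458, 1458, 1454 and 1515 CPM against 1887, 1622, 1649 and 1797 CPM, 0.24 ± 0.05, adjusted p = 3.31e-03). Rpl3, which lies near the peptidyl transferase centre, and Rpl10a were higher by 0.18 ± 0.05 and 0.16 ± 0.04. Rpl7, Rpl18 and Rpl37 passed the test at 0.15, 0.12 and 0.12, and these calls rested on few mice. The Rpl7 call was lost without B6.SLE123 replicate 1 or 4 or without C57BL/6 replicate 1, 2 or 3 (0.11 to 0.15), and the Rpl18 and Rpl37 calls were lost in all leave-one-out fits but that without C57BL/6 replicate 4, with values of 0.10 to 0.13 and 0.08 to 0.13. Rpl38, known for its part in the translation of Hox messenger RNAs, had 180 to 194 CPM in C57BL/6 and 170 to 197 CPM in B6.SLE123 (-0.04 ± 0.05, adjusted p = 0.504).

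The small subunit decodes the messenger RNA. Of its 31 members, 15 were higher, 1 was lower and the median log2 difference was 0.13. Rps6, the classic substrate of the S6 kinases downstream of TOR, had 659, 652, 673 and 708 CPM in C57BL/6 and 836, 752, 758 and 785 CPM in B6.SLE123. These ranges did not overlap (0.22 ± 0.05, adjusted p = 2.75e-03). Rpsa, also known as the laminin receptor, had 1265, 1245, 1307 and 1372 CPM against 1636, 1449, 1480 and 1570 CPM, again without overlap (0.24 ± 0.05, adjusted p = 2.66e-03). Rps9 (1205, 1232, 1237 and 1391 CPM against 1580, 1430, 1513 and 1619 CPM, 0.28 ± 0.06, adjusted p = 2.17e-03) and Rps26 (450, 467, 458 and 471 CPM against 602, 539, 549 and 533 CPM, 0.27 ± 0.05, adjusted p = 6.19e-04) did not overlap between the strains either.

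Rps19, mutated in Diamond-Blackfan anaemia, had 546 to 576 CPM and 578 to 656 CPM (0.15 ± 0.05, adjusted p = 0.0213). The X-linked Rps4x had 1104 to 1203 CPM and 1214 to 1355 CPM (0.16 ± 0.05, adjusted p = 0.0157). Rps27a, made as a fusion with ubiquitin, overlapped between the strains at 568 to 650 CPM and 634 to 728 CPM, and passed the test (0.18 ± 0.06, adjusted p = 0.0217). Rps3, which also acts in DNA repair, had 947 to 1043 CPM and 1018 to 1171 CPM and did not pass (0.14 ± 0.05, adjusted p = 0.0522). Rps27 had 608 to 690 CPM and 614 to 686 CPM (0.02 ± 0.05, adjusted p = 0.814). Rps29, a short zinc-binding member, was at the threshold (0.13 ± 0.05, adjusted p = 0.0498). The calls of Rps19 and Rps27a were lost without B6.SLE123 replicate 1 (0.12 and 0.14) or replicate 4 (0.12 and 0.15) and without C57BL/6 replicate 1 (0.14 and 0.15) or replicate 3 (0.15 and 0.17), and that of Rps4x without B6.SLE123 replicate 4 (0.14) or C57BL/6 replicate 1 (0.15). The Rps29 call held only without B6.SLE123 replicate 2 among the leave-one-out fits (0.10 to 0.16 over all 8), and Rps3 passed without B6.SLE123 replicate 3 (0.17) or C57BL/6 replicate 4 (0.15).

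**Figure D2:**
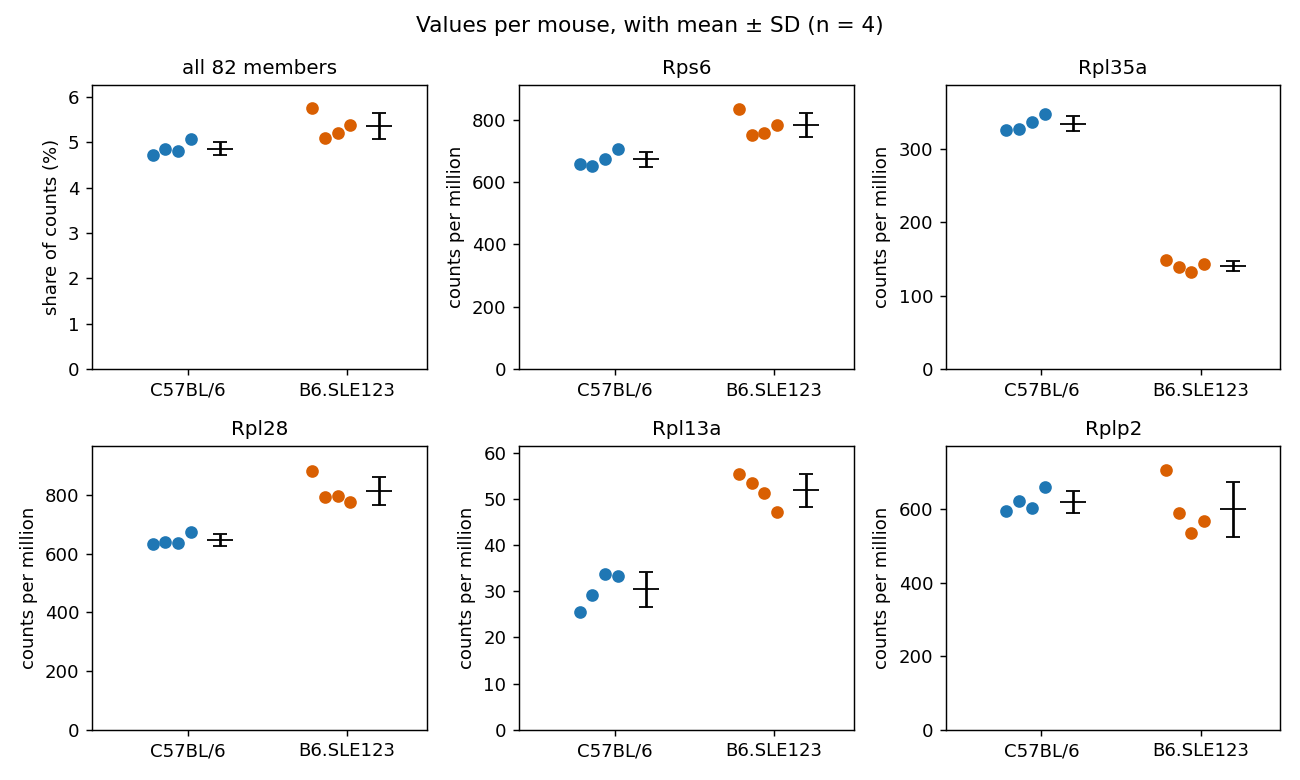
Values in each of the 8 mice, as the summed share of counts of the 82 members and as CPM for 5 genes, with mean ± SD beside the points (n = 4 per strain, axes from 0). Rps6 follows the summed share, Rpl35a is far lower in B6.SLE123, Rpl28 and Rpl13a are higher, and Rplp2 overlaps.

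Rpl35a stood apart from every other member. This large subunit gene on chromosome 16 (chr16:33056453-33060189, plus strand) had 326, 328, 336 and 348 CPM in the C57BL/6 mice and 149, 139, 133 and 143 CPM in the B6.SLE123 mice. No B6.SLE123 mouse came near the C57BL/6 range, and the level was 2.38-fold lower (log2 fold change -1.25 ± 0.05, adjusted p = 3.65e-08). Set against Rpl31, a member of like length and level, Rpl35a ran at 92.1%, 89.3%, 93.6% and 90.3% in C57BL/6 and at 33.5%, 34.8%, 31.9% and 35.2% in B6.SLE123. Rpl31 was itself higher in B6.SLE123 (0.18 ± 0.05, adjusted p = 6.72e-03), which adds to the fall of this ratio. It also shares 25.3% of its exon bases with Tbc1d8 on the opposite strand. Rpl35a carries no listed exon overlap with a neighbour. Its transcript has 14 near-identical copies elsewhere in the annotation (at least 95% identity over at least 50% of its length), so its counts are uncertain to the extent that reads were split among copies. The next gene downstream, Lmln, went the other way, from 6.57 to 15.3 CPM (1.22, adjusted p = 4.49e-06), and the nearest gene on the other side, Iqcg, was at 0.24 and 0.31 CPM. Further out, Lrch3 (0.37, adjusted p = 4.86e-03) and Osbpl11 (0.27, adjusted p = 1.28e-03) were higher, and Fyttd1 and Snx4 did not pass the test. Chromosome 16 is not among the chromosomes that carry the congenic intervals, and whether the strains differ in sequence around Rpl35a was not tested.

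Rpl13a on chromosome 7 had the largest rise among members above 10 CPM. Rpl13a (chr7:45125558-45128761, minus strand), whose product also silences inflammatory messenger RNAs as part of the GAIT complex, had 25.6, 29.1, 33.8 and 33.3 CPM in C57BL/6 and 55.5, 53.5, 51.4 and 47.2 CPM in B6.SLE123. It was higher in every B6.SLE123 mouse, by 1.70-fold (0.77 ± 0.09, adjusted p = 2.79e-05). Nearby genes went in different directions. Fcgrt, the neonatal Fc receptor, was at 251.8 and 105.4 CPM (-1.26, adjusted p = 2.34e-06), Flt3l, the dendritic cell growth factor, at 18.3 and 17.8 CPM (-0.04, adjusted p = 0.791), and Aldh16a1 at 105.7 and 139.7 CPM (0.40, adjusted p = 1.36e-05). Of the 129 genes between 40 and 50 Mb of chromosome 7, 36 were higher (27.9%) and 54 lower (41.9%), with a median of -0.15. Over all genes the shares were 26.7% and 26.6%. Rpl18, a member in this window, was at 565 and 614 CPM (0.12 ± 0.05, adjusted p = 0.0426). The 14 members on chromosome 7 had 9 higher (64.3%) and none lower, with a median of 0.14. The 8 on chromosomes 1 and 4 had 5 higher (62.5%) and none lower, with a median of 0.16. These shares were near the 57.3% higher of all 82 members. The 68 outside chromosome 7 had 55.9% higher and a median of 0.14. For all 1092 genes of chromosome 7, 267 were higher and 352 lower, with a median of -0.05.

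Most canonical members had levels far above those of 3 others. In C57BL/6, 74 of the 77 had means of 184.5 (Rpl38) to 1553 CPM (Rplp0). Per kb of transcript these 74 had 137.9 to 2274 CPM, with a median of 799.5 and Rplp1 at the top. Scaling by length thus did not narrow the range. The lowest per kb, Rps20, has an unusually long listed transcript of 3706 bases and was at 511 CPM. The other 3 members fell well short of the range per kb, Rpl24 at 2.16, Rps10 at 16.3 and Rpl13a at 29.1 CPM per kb. These 3 were also the members that share more than 20% of their exon bases with another annotated gene on the same strand: 47.0% of Rpl24 with Gm28037, 29.4% of Rpl13a with Gm45713 and 20.6% of Rps10 with a read-through transcript to Nudt3. Reads in shared bases can be dropped or assigned to either gene, and how they were handled is not given in the sources used here, so the levels of these 3 genes are uncertain. Of the members, 19 shared exon bases with a gene on the opposite strand, and 24 with a small nucleolar RNA gene on the same strand. Small nucleolar RNA genes that lie wholly in introns were not counted.

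**Figure D3:**
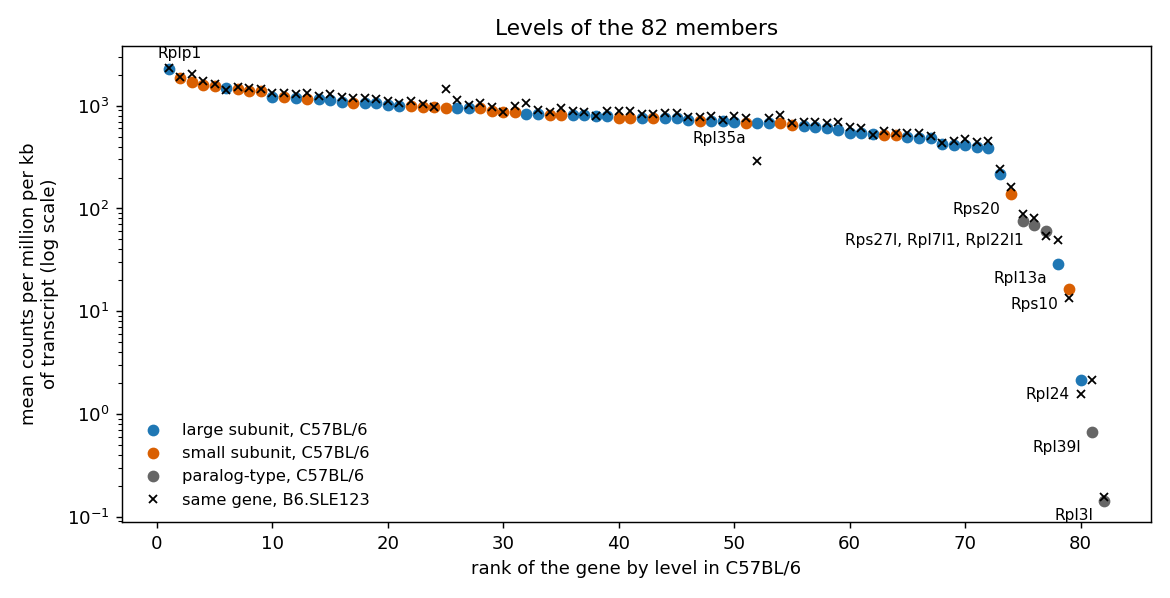
Mean CPM per kb of transcript of the 82 members in C57BL/6 (coloured points, ranked, log axis) and in B6.SLE123 (crosses). All canonical members but Rpl13a, Rps10 and Rpl24 lie above 100 CPM per kb, and the Rpl35a cross lies well under its point.

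Rps10 and Rpl24 were also the remaining canonical members besides Rpl35a with a difference below -0.1. Rps10 had 7.42, 8.22, 8.23 and 8.57 CPM in C57BL/6 and 5.60, 7.36, 6.27 and 7.48 CPM in B6.SLE123, with a small overlap (-0.28 ± 0.11, adjusted p = 0.0461). Its call was lost without B6.SLE123 replicate 1 (-0.21) or 3 (-0.25) and without C57BL/6 replicate 2 (-0.28), 3 (-0.27) or 4 (-0.26). Rpl24, named after its values were seen, had 1.82, 1.42, 1.53 and 1.09 CPM against 1.01, 1.05, 0.92 and 1.22 CPM and did not pass the test (-0.48 ± 0.20, adjusted p = 0.0670). Rpl36al, which the symbol rule does not take and which shares 24.5% of its exon bases with Gm49383, was at 1.35 and 0.92 CPM (-0.55 ± 0.19, adjusted p = 0.0297), a call lost without B6.SLE123 replicate 1 (-0.51) or 2 (-0.55) or C57BL/6 replicate 4 (-0.44). Also outside the rule, Rack1, a scaffold on the small subunit, was at 971 and 1069 CPM (0.14 ± 0.05, adjusted p = 0.0479), and Fau was at 689 and 745 CPM (0.11 ± 0.05, adjusted p = 0.103). The Rack1 call held only without B6.SLE123 replicate 2 or 3 among the leave-one-out fits, whose values ran from 0.10 to 0.16.

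Paralog-type members were far less abundant than their partners, and 3 of the 5 were higher and 1 was lower. Rpl39l, a testis-enriched copy of Rpl39, had 0.26, 0.58, 0.49 and 0.13 CPM in C57BL/6 and 1.14, 1.21, 0.80 and 1.54 CPM in B6.SLE123. The strains did not overlap, at a level of 4 to 45 counts per mouse (1.66 ± 0.37, adjusted p = 3.20e-03). It ran at 0.12 ± 0.07% of Rpl39 in C57BL/6 and 0.37 ± 0.09% in B6.SLE123, and Rpl39 itself was at 297 and 313 CPM (0.07 ± 0.06, adjusted p = 0.291). Rpl22l1 moved against the group, with 33.7, 34.2, 32.0 and 34.2 CPM against 30.4, 27.9, 30.6 and 29.5 CPM and no overlap (-0.18 ± 0.05, adjusted p = 0.0103). Its partner Rpl22, known to repress Rpl22l1, was at 299 and 326 CPM (0.13 ± 0.06, adjusted p = 0.107), and the Rpl22l1 level relative to Rpl22 was 11.3 ± 0.654% and 9.11 ± 0.814%. Rps27l, a p53 target, had 36.4 to 40.5 CPM and 39.9 to 49.9 CPM (0.21 ± 0.07, adjusted p = 0.0347), a call lost without B6.SLE123 replicate 1 (0.14) or 2 (0.18) or without C57BL/6 replicate 1, 2 or 4 (0.19, 0.20 and 0.19). Rpl7l1, which acts in ribosome assembly, had 88.5 to 92.8 CPM and 99.7 to 109.9 CPM without overlap (0.21 ± 0.04, adjusted p = 2.11e-03). Rpl3l, the heart and skeletal muscle copy of Rpl3, was at 2 to 9 counts per mouse (0.09 ± 0.44, adjusted p = 0.872).

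Longer members had larger log2 fold changes than shorter ones, a pattern described here without a test. Of the 16 canonical members with a coding sequence of at most 350 bases, 3 were higher and 1 lower, and the median was 0.05. Among the 20 of 350 to 450 bases the median was 0.13, with 10 higher. Among the 19 of 450 to 600 bases it was 0.13, with 11 higher and 1 lower. For the 19 of 600 to 900 bases it was 0.17, with 17 higher, and the 3 longest, up to 1257 bases, were all higher with a median of 0.19. Other genes in the same length classes had medians from -0.03 to 0.01. Split at the median coding length of 456 bases, 13 of 39 shorter and 31 of 38 longer members were higher. Spearman's rho between coding length and log2 fold change was 0.535 across the 77 canonical members and 0.077 across 13739 genes, where the genes share the 8 libraries and are not independent. An offset for transcript length by sample raised the calls from 50 to 60 members, 58 of them higher, at a median of 0.15. The number of near-identical copies showed little relation (rho 0.090): the median was 0.13 in the 16 members with no copy, 0.13 in the 30 with 1 to 4 and 0.15 in the 36 with 5 or more.

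**Figure D4:**
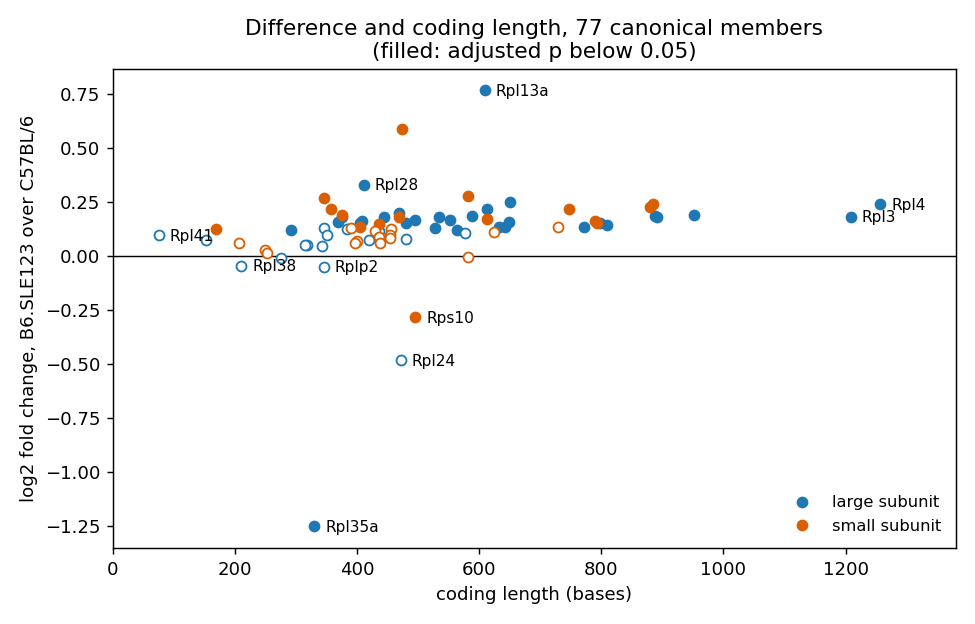
Log2 fold change, B6.SLE123 over C57BL/6, against coding length in bases for the 77 canonical members, coloured by subunit and filled where the adjusted p was below 0.05. Short members such as Rpl38 and Rplp2 lie near 0, the longest, Rpl3 and Rpl4, lie at 0.18 and 0.24, and Rpl35a lies alone at -1.25.

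The strain difference was also set beside the pyrimidine run at the start of the transcript. The 29 members with a run within 5 bases of a listed start had 16 higher and 3 lower (median 0.16), and the 33 with a listed promoter but no such run had 17 higher and none lower (median 0.14). Among the printed sequences, Rpl35a and Rpl28 carry the same 8 letters from the start site and differed by -1.25 and 0.33.

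Other genes of the translation machinery gave the setting for these differences, and the genes named from them were chosen after their values were seen. Of 20 measured translation factors and companion genes whose transcripts are known for TOP motifs, 17 were higher (85.0%, against 26.7% of all genes) and none lower, with a median of 0.21. They included the elongation factors Eef1a1 (6661 and 7933 CPM, 0.25 ± 0.05, adjusted p = 2.26e-03), Eef1b2 (629 and 819 CPM, 0.38 ± 0.06, adjusted p = 2.80e-04) and Eef2 (2657 and 3044 CPM, 0.20 ± 0.05, adjusted p = 5.17e-03). Of 40 ribosome biogenesis genes, which process ribosomal RNA and assemble subunits, 19 were higher (47.5%) and 6 lower (15.0%), against 26.7% and 26.6% of all genes, with a median of 0.14. Polr1a, the catalytic subunit of RNA polymerase I, was higher (73.0 and 99.0 CPM, 0.44 ± 0.06, adjusted p = 6.77e-05), and Polr1b, its partner subunit, was lower (27.3 and 19.9 CPM, -0.45 ± 0.06, adjusted p = 7.90e-05). Ncl and Npm1, which encode nucleolar proteins, were higher by 0.23 ± 0.05 and 0.28 ± 0.06.

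Of 18 TOR, Myc and TOP regulators, 5 were higher and 5 lower (27.8% each), near the 26.7% and 26.6% of all genes, with a median of 0.03. Mtor itself was at 85.1 and 110.3 CPM (0.38 ± 0.06, adjusted p = 4.27e-04) and its partner Rptor at 63.6 and 78.5 CPM (0.31 ± 0.06, adjusted p = 8.33e-04). Myc, which drives transcription of ribosome genes, was lower at 42.6 and 32.8 CPM (-0.38 ± 0.08, adjusted p = 2.26e-03). Larp1 did not pass the test (250.6 and 266.0 CPM, 0.09 ± 0.04, adjusted p = 0.0654). Mitochondrial ribosomal proteins, which serve the separate ribosomes of mitochondria, had 16 of 77 genes higher (20.8%) and 3 lower (3.90%), with a median of 0.04. Their share called, 24.7%, was below the 53.4% of all genes. Their summed share of counts was 0.179 ± 0.00545% in C57BL/6 and 0.184 ± 0.00286% in B6.SLE123.

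**Figure D5:**
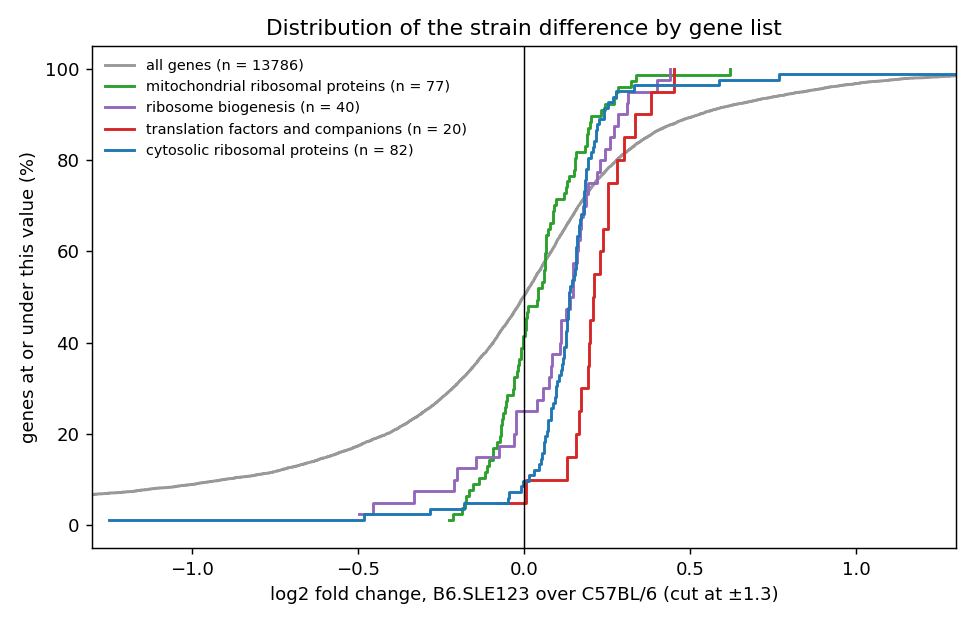
Cumulative distribution of the log2 fold change, B6.SLE123 over C57BL/6, for the 82 cytosolic ribosomal protein genes, 3 related lists and all genes (percent of genes at or under each value, axis cut at 1.3 to either side). The cytosolic curve crosses 50% at 0.14, the translation factors at 0.21, ribosome biogenesis at 0.14, mitochondrial ribosomal proteins at 0.04 and all genes at 0.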

How the data were processed

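The deposited table held raw counts of reads per gene, without normalization. Per the study's methods and processing notes, the authors used cutadapt for trimming, STAR for alignment to mm10 and featureCounts for counting. The library kit is stranded, and the strand setting of the counting is not given in the sources used here. Groups were taken from the sample names, because a number inside the genotype label rose from sample to sample. Each sample was taken as 1 mouse. The sources used here do not say so outright, so p-values measure the spread between these samples.

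All 13786 genes were fitted with edgeR 4.0.16 (glmQLFit and glmQLFTest, trimmed-mean-of-M-values (TMM) factors, no filter), and p-values were adjusted by Benjamini-Hochberg over all of them. CPM values use the TMM-scaled library sizes, log2 fold changes are B6.SLE123 over C57BL/6, ± after a log2 fold change is its standard error, and called means an adjusted p below 0.05. Limma-voom (limma 3.58.1) and DESeq2 1.42.0 were alternatives, as were relative log expression factors, TMM without the members, at least 10 counts in every sample, a transcript length offset, a replicate block and leaving out each mouse. Counts were simulated for this comparison over 13786 genes, of which 200 were changed. There edgeR recovered 46% of 50 genes changed 1.25-fold, 92% at 1.5-fold, 96% at 2-fold and 98% at 4-fold, with 5 false among 171 calls. In the data 53.4% of genes were called, a far larger share. The adjustment over all genes was therefore not the same, and these shares do not give the recovery in the data. No 2 libraries were duplicates, since the chi-square per degree of freedom between mice of a strain was 4.96 or more.

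Exons, lengths and overlaps came from GENCODE M21 (GRCm38), whose coordinates equalled those of the table for all 82 members. Lengths are of the principal transcript. Near-identical copies were counted with BLAST+ 2.17.0, and promoters (250 bases before to 50 after the start) came from RefSeq on GRCm38.p6. Named genes were the 6 largest and 6 smallest differences among called members averaging 100 counts or more in one strain, paralog-type members with their partners, the 5 members highest in CPM, a list of members of known role, relatives outside the symbol rule, and members on chromosome 7 from 40 to 50 Mb. Some named items are not reported here. The members, gene lists and tests were chosen with earlier results of these data known.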

Additional observations from a re-analysis of the deposited data

Results flagged for a closer look

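A mouse stood far from the other 3 of its strain, by Dixon's test at the 95% level on log2 CPM, in 4 of the 80 sets of 4 mice examined, and chance alone would flag about 4. Rpl28, Rpl3 and Rpl4 were each high in C57BL/6 replicate 4. Rpl28 was at 9.40 there (675.5 CPM), against a strain median of 9.32 and 633.1 to 638.4 CPM in the others. Rpl3 was at 9.95 (986.6 CPM), against 942.4 to 947.9 CPM in the others, and Rpl4 at 10.57 (1515 CPM), against 1454 to 1458 CPM. This was the mouse with the highest value of its strain in 74 of 82 members. Rpl3l was low in B6.SLE123 replicate 2, at -2.53 (0.11 CPM), against 0.24 to 0.27 CPM in the others, a difference of a few counts.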

How the results depend on the processing

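Across 19 settings, 120 of 129 alternatives for the counts and medians of the members kept their side, and 9 moved. Another 750 concerned single genes and related lists, of which 652 kept direction and call, 72 lost the call, 12 gained it, 10 reversed and 4 counts moved by over 1.5 times. Calls over the members numbered 54 by DESeq2, 51 by limma-voom, 41 with at least 10 counts in every sample and 41 with TMM factors computed without the members. All 50 members called by edgeR were among the DESeq2 calls. Leaving out 1 mouse gave 31 to 48 calls, 28 to 45 higher, and medians of 0.10 to 0.16. With at least 10 counts in every sample Rpl39l was not tested and 1 member passed 2-fold, while 4 passed 1.5-fold in place of 2-fold. The median of the TOR, Myc and TOP regulators reversed to -0.02 under the length offset (-0.0177, and -0.0178 with a replicate block) and ranged from -0.0083 to 0.0472 with 1 mouse left out. Leaving out a mouse also turned the sign of 3 members that had passed no test, with ranges of -0.15 to 0.33 for Rpl3l, -0.14 to 0.0014 for Rplp2 and -0.0205 to 0.043 for Rps27, and took the mitochondrial ribosomal protein calls from 19 to 11 without B6.SLE123 replicate 1 or C57BL/6 replicate 4 and to 12 without C57BL/6 replicate 1 or 2. The causes were not tested. The main fit did not pair mice by replicate number. Deviations of same-numbered mice correlated at 0.08, 0.23, 0.10 and 0.13. C57BL/6 replicates 1 and 3 correlated slightly better with another number (0.0778 and 0.1057). These values do not settle whether the numbers pair the mice. The fit with a replicate block called 42 members, 39 higher, with a median of 0.14. Rpl3l and Rpl39l, at 2 to 45 counts per mouse, rest on few counts.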

Other observations

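Genes whose proteins work in 1 complex did not always differ the same way in RNA level. The genes named here were chosen after their values were seen. Nhp2 and Nop10 are core proteins of the same class of small nucleolar particles, which modify ribosomal RNA. Nhp2 had 31.8, 34.1, 33.2 and 37.5 CPM in C57BL/6 and 49.6, 44.5, 43.7 and 42.5 CPM in B6.SLE123 (0.40 ± 0.06, adjusted p = 3.83e-04 by edgeR). Nop10 had 32.1, 30.2, 34.1 and 32.2 CPM against 25.9, 24.3, 24.3 and 27.8 CPM (-0.33 ± 0.06, adjusted p = 9.02e-04). The strains did not overlap in either gene. Dkc1, the enzyme of these particles, was at 37.0 and 41.5 CPM (0.16 ± 0.05, adjusted p = 0.0161), and Gar1 at 18.0 and 19.9 CPM (0.15 ± 0.06, adjusted p = 0.0559).

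Among the 77 mitochondrial ribosomal protein genes, Mrps11 on chromosome 7 had the largest difference. It had 11.3, 11.2, 9.48 and 10.8 CPM in C57BL/6 and 16.9, 16.0, 16.3 and 16.3 CPM in B6.SLE123, without overlap (0.62 ± 0.07, adjusted p = 3.00e-05 by edgeR), where the median of the list was 0.04.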
